A study of Mus musculus with 6 samples.

Results

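Cytosolic ribosomal protein genes were followed over 6 arrays of mouse heart and leg muscle, with and without miR-214. The genes were taken by symbol, as every probe named Rps or Rpl with a number and an optional letter, or named Rplp0, Rplp1, Rplp2 or Rpsa, leaving out the Rps6k kinases and pseudogene names with -ps. This gave 92 probes of 45281, for 62 genes of 19057 named on the array, of which 37 belong to the large and 25 to the small ribosomal subunit. Of the 62 genes, 54 were detected on all 6 arrays, 1 (Rpl22l1) on 1 array and 7 on none, where detected means a detection p under 0.01.

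The 6 arrays were Illumina mouse bead arrays hybridised with Cy3-labelled material, 1 per group and pooled from 3 male mice of mixed strain background each, as labelled. The groups were the miR-214 knockout (KO) and wild-type (WT) heart at postnatal day 14 (P14), the KO and WT heart at 8 weeks (adult heart), and the KO and WT tibialis anterior at 8 weeks, a fast muscle of the lower leg. The design compared KO with WT in each of these 3 settings. Since a group is 1 array, no KO and WT difference within a setting could be replicated or tested.

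Each cytosolic ribosome is built from a small subunit, which reads the mRNA, and a large subunit, which joins the amino acids. Most ribosomal proteins are made in equal numbers in every cell, and their mRNAs begin with a run of pyrimidines, the terminal oligopyrimidine (TOP) tract, through which mTOR signalling sets their translation. Rpl3, a large-subunit protein close to the catalytic centre, has a paralogue, Rpl3l, that is made in heart and skeletal muscle. miR-214, the deleted microRNA, belongs to the class of short RNAs that pair with target mRNAs through a seed. It was not measured on these arrays in the values used here, so the genotype labels were not checked with it.

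Sequences around the annotated start of transcription are shown for members whose values the results turn on, from the RefSeq windows of GRCm38.p6. The mature strand of miR-214 from the 3′ arm (chr1:162223438-162223459, plus strand) stands first, with its seed, bases 2 to 8, in capitals. In the gene windows, 45 bases lie before the start and 15 from it on, and capitals mark the longest run of at least 5 C or T that touches the 10 bases on either side of the start.
miR-214-3p: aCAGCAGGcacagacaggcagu
Rpl3l (chr17:24727781-24727840, plus strand): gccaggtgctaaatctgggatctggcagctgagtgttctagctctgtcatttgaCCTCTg
Rplp0 (chr5:115559422-115559481, plus strand): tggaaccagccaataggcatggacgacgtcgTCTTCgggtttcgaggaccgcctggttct
Rps26 (chr10:128626492-128626551, minus strand): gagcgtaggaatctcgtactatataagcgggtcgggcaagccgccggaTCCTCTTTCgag
Rpl36a (chrX:134585609-134585668, plus strand): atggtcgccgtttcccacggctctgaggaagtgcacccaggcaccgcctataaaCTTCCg
Rps27l (chr9:66946041-66946100, plus strand): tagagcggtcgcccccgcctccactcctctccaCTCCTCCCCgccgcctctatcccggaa
Rps9 (chr7:3703996-3704055, plus strand): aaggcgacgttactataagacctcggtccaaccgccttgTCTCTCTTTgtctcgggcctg
Rpl19 (chr11:98026665-98026724, plus strand): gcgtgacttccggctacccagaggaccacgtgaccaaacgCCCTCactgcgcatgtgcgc
Rpl24 (chr16:55966230-55966289, plus strand): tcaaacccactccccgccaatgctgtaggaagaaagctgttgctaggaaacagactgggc
Rps3a1 (chr3:86142654-86142713, minus strand): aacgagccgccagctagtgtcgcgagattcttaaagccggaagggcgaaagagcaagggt

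The windows of Rps26, Rps27l and Rps9 carry a run of 9 pyrimidines near the start, those of Rpl3l, Rplp0, Rpl36a and Rpl19 a run of 5, and those of Rpl24 and Rps3a1 none. A second annotated start of Rpl3l has a window without such a run. For the other genes only the first listed window is shown, and those of Rps27l, Rps9 and Rpl19 lie wholly within the annotated gene. For 51 of the 62 genes the RefSeq table held at least 1 window of 300 bases, 61 windows in all. Of these, 42 (68.9%) had such a run of at least 5 near the start, against 44.9% of all 32851 windows. Such a run can end before the start, as in the windows of Rplp0, Rps27l and Rpl19. It then lies outside an mRNA that begins at that annotated start. Where transcripts begin in these tissues was not tested. The start base itself was C or T in 39.3% of the members' windows and in 30.0% of all windows. A run of at least 10 was present in 29.5% of the members' windows and in 6.97% of all windows. The letters CCGGAAG, on either strand anywhere in the 300 bases, occurred in 39.3% of the members' windows and in 8.86% of all windows. AAGATGGC on either strand was present in 6.56% of the members' windows against 2.75% of all windows, and TATAAA on either strand in 9.84% against 13.6%. These matches describe letters in a window and are not mapped binding sites. Over the 21262 windows of protein-coding genes, the shares were 11.6% for CCGGAAG, 3.05% for AAGATGGC and 12.6% for TATAAA. In the same windows they were 44.5% and 6.87% for runs of at least 5 and 10, and 23.4% for a start base of C or T.

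Before the values, 3 facts of the arrays bear on them. The arrays are labelled male, yet the female-specific RNA Xist was detected on all 6, at log2 intensities of 9.60 to 10.64. The Y-linked genes Eif2s3y, Kdm5d and Uty were detected on the P14 WT array alone, and Eif2s3y read 4.33 in P14 KO and 8.07 in P14 WT hearts and 4.20 to 4.40 on the 4 adult arrays. The cardiomyocyte marker Myh6 stood at 5.60 to 5.97 on the tibialis anterior arrays and at 14.76 to 14.89 on the 4 heart arrays, and all 11 fast-fibre markers were detected on both tibialis anterior arrays. Fast-fibre markers were also detected on the heart arrays, 11 of 11 on the P14 KO and 7 on the P14 WT array, 6 on the adult KO and 5 on the adult WT array. Their summed levels were 18183 in P14 KO and 12679 in P14 WT hearts, 11956 in adult KO and 10235 in adult WT hearts, and 263948 in KO and 273774 in WT tibialis anterior. In these bulk samples, fewer cells of a type and less RNA per cell cannot be told apart.

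The ribosomal protein genes were among the brightest signals. Of the 54 tested members, 35 lay in the brightest 5% of 10271 tested genes and 42 in the brightest 10%. Levels are given as log2 of the background-corrected, quantile-normalized intensity of each gene's brightest probe, and a difference of 1 is a doubling of this intensity. Members without detection on any array were Rpl14, Rpl17, Rpl39l, Rpl6, Rps20, Rps23 and Rpsa. Some probes of detected members were also not detected on any array. Rplp2 had such a probe beside its brightest at 12.64 to 13.33, and Rpl23 had one beside its brightest at 14.05 to 14.56. A lack of detection here therefore does not show that a transcript was absent. Rpl22l1, the paralogue of the RNA-binding protein Rpl22, read 4.98 in KO and 5.23 in WT tibialis anterior and was detected on the WT array only. Rps4l, counted by its symbol among the small-subunit genes, is a transcribed pseudogene in the RefSeq table. Mouse ribosomal protein genes have many processed pseudogenes, and cross-hybridisation of the probes was not tested.

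The adult WT heart array stood apart for the ribosomal protein genes, and also had the lowest median for mitochondrial gene lists given later. After each member was centred on its mean over the 6 arrays, the median of the 54 members was 0.13 in P14 KO and 0.02 in P14 WT hearts. It was 0.16 in adult KO and -0.33 in adult WT hearts, and 0.10 in KO and -0.07 in WT tibialis anterior. The adult WT heart array held the lowest of the 6 values for 38 of 54 members (70.4%), against 12.5% of all tested genes. The other 16 members had their lowest value on another array, 2 of them on the KO tibialis anterior array (3.7%, background 22.7%) and 7 on the WT tibialis anterior array (13%, background 19.7%).

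**Figure D1:**
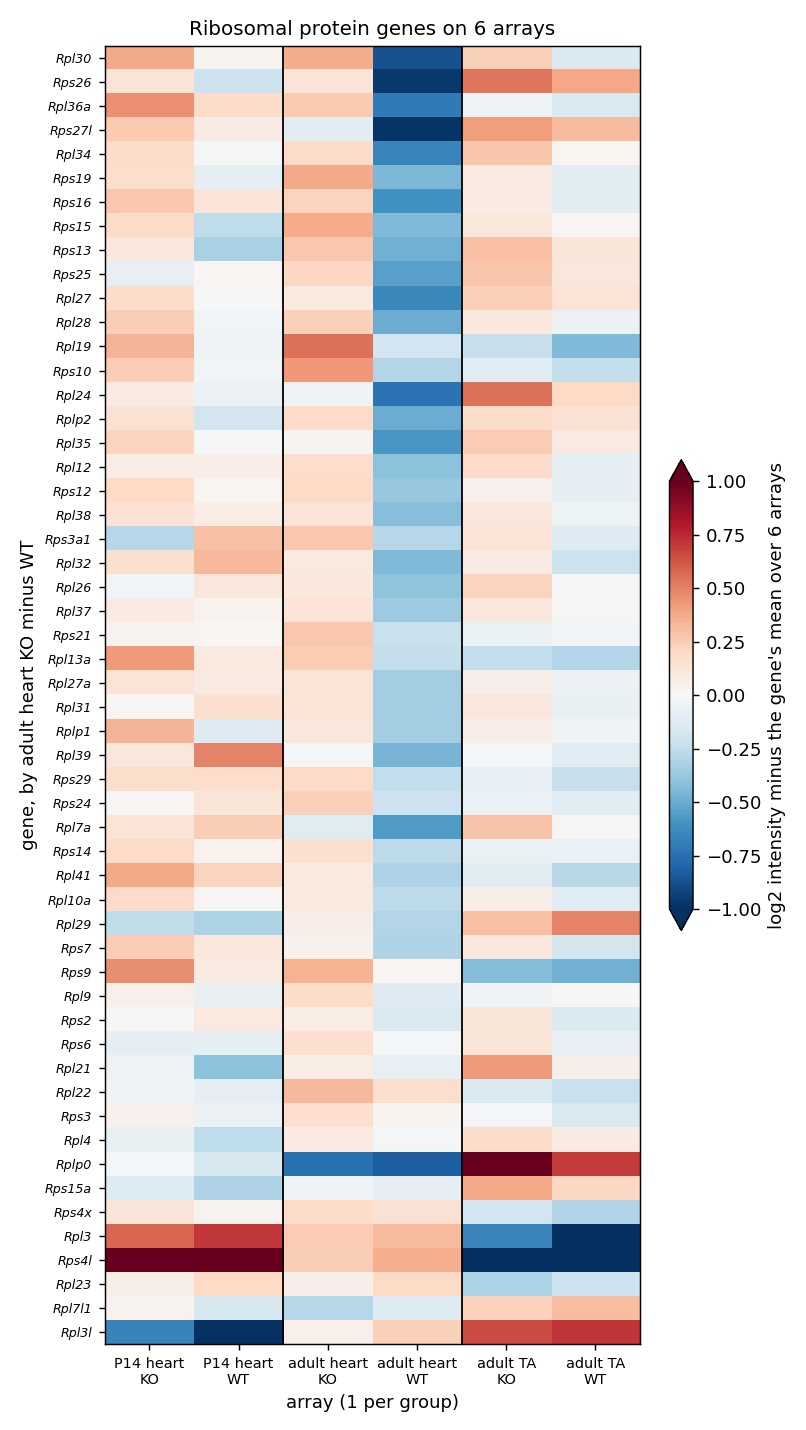
Log2 intensity of 54 ribosomal protein genes (rows, ordered by adult heart KO minus WT) on 6 arrays (columns, 1 per group, TA for tibialis anterior), each minus the gene's mean over the 6 arrays, in colours that saturate at 1 in either direction. The adult WT heart column is blue for most genes and holds the lowest value for 38 of 54, while Rpl3 and Rps4l are lowest on a tibialis anterior array and Rpl3l on the P14 WT array.

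In the adult heart the question was how KO and WT differ at 8 weeks, and ribosomal protein genes of both subunits read higher in KO than in WT. KO was above WT for 49 of 54 members (background 45.8% of 10079 genes), with a median difference of 0.47 against -0.04 over all genes. At least 1.5-fold higher in KO were 18 members, or 33.3%, against a background of 7.33%, and 0 were at least 1.5-fold lower, against 3.76%. With arrays centred on their medians in place of quantile normalization, 30 members were past 1.5-fold, with a median of 0.61. At the lower bound of 0.32 in log2, 39 were higher in KO (background 18.6%) and 0 lower (background 18.1%). The 18 were 10 of 32 large-subunit and 8 of 22 small-subunit genes, and the median was 0.47 in each subunit. The median bead standard error of the members' differences was 0.052, which covers the reading of single arrays only.

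Rpl30, a small protein of the large subunit, read 8.18 in KO and 6.94 in WT adult hearts, a difference of 1.24 (bead SE 0.077) or 2.37-fold. Rps26, a small-subunit protein at the exit of the mRNA channel, read 11.73 in KO and 10.64 in WT adult hearts, a difference of 1.09 (bead SE 0.058) or 2.13-fold. These were the 2 of 54 members past 2-fold, where 126 of 10079 genes were. For both genes the adult WT heart array was the lowest of the 6, with Rpl30 at 7.67 to 8.20 and Rps26 at 11.40 to 12.14 on the other 5 arrays.

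Rpl36a, an X-linked large-subunit gene, stood at 11.05 in KO and 10.07 in WT adult hearts. Rps27l, a paralogue of the small-subunit gene Rps27, stood at 11.99 in KO and 11.11 in WT adult hearts. Differences of 0.83 to 0.85 followed for Rpl34, Rps19 and Rps16. Rps19 is the small-subunit gene mutated in Diamond-Blackfan anaemia.

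The lowest differences in the adult heart were those of Rpl3l, at 13.74 in KO and 13.93 in WT (-0.19), and of Rpl7l1, at 8.70 in KO and 8.86 in WT (-0.16). Rpl23 (-0.13), Rps4l (-0.12) and Rpl3 (-0.07) were the other members with KO below WT. Both Rpl3 and its muscle paralogue were thus among the 5 members with KO below WT. Rpl36al, a large-subunit gene that the symbol rule leaves out, differed by 0.68, with 12.03 in KO and 11.35 in WT adult hearts.

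Where a gene had several probes, their size of difference varied. The second Rpl30 probe gave 0.76 in the adult heart, the 3 Rpl27a probes gave 0.08 to 0.75, the 2 Rpl38 probes 0.56 and 1.12, and the 3 Rpl31 probes 0.34 to 0.89. The 3 Rpl23 probes spanned -0.13 to 0.36 and so differed in sign.

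At P14 the difference was smaller. KO was above WT for 41 of 54 members (background 50.1%), with a median of 0.15 against 0.00 over all genes, and 0 members reached 1.5-fold in either direction (background 3.47% higher and 4.57% lower). With arrays centred on their medians the P14 median was 0.28 and 1 member was past 1.5-fold. At least 0.32 higher in KO were 12 members (background 16.6%) and at least 0.32 lower were 2 (background 15.8%). The highest were Rplp1, an acidic protein of the ribosomal stalk, at 14.90 in KO and 14.43 in WT (0.47), and Rps15 at 11.49 in KO and 11.04 in WT (0.45). Rps13 differed by 0.43, Rps4l by 0.41 and Rpl19 by 0.38.

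The lowest at P14 was Rps3a1, a small-subunit protein, at 6.86 in KO and 7.43 in WT (-0.57, bead SE 0.12). Next came Rpl39, a very small protein that lines the exit tunnel, at 12.65 in KO and 13.04 in WT (-0.39, bead SE 0.058). Rpl32 (-0.16) and Rpl31 (-0.14) followed. Among probes, the brightest Rps3 probe gave 0.10 and the other -0.62, while the Rpl31 probes ran between -0.14 and 0.47 and the Rpl23 probes between -0.14 and 0.30. The 2 P14 arrays also differ in the Y-linked genes given above, and the X-linked Rps4x was 13.04 in KO and 12.95 in WT.

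In the tibialis anterior KO was above WT for 47 of 55 detected members (background 46.2%), with a median of 0.15 against -0.02 over all genes. None of the 55 reached 1.5-fold in either direction (background 5.06% higher and 2.67% lower). At least 0.32 higher were 5 (background 11.4%) and at least 0.32 lower was 1 (background 10.3%). The highest difference was that of Rpl3, at 11.87 in KO and 11.32 in WT (0.54, bead SE 0.042). Rpl30 (0.38), Rpl21 (0.37), Rplp0 (0.35) and Rpl24 (0.35) followed. The lowest were Rps4l (-0.41, bead SE 0.23), Rpl22l1 (-0.25), Rpl29 (-0.20), Rpl23 (-0.11) and Rpl7l1 (-0.08). Rpl22l1 was detected on 1 of the 2 arrays.

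**Figure D2:**
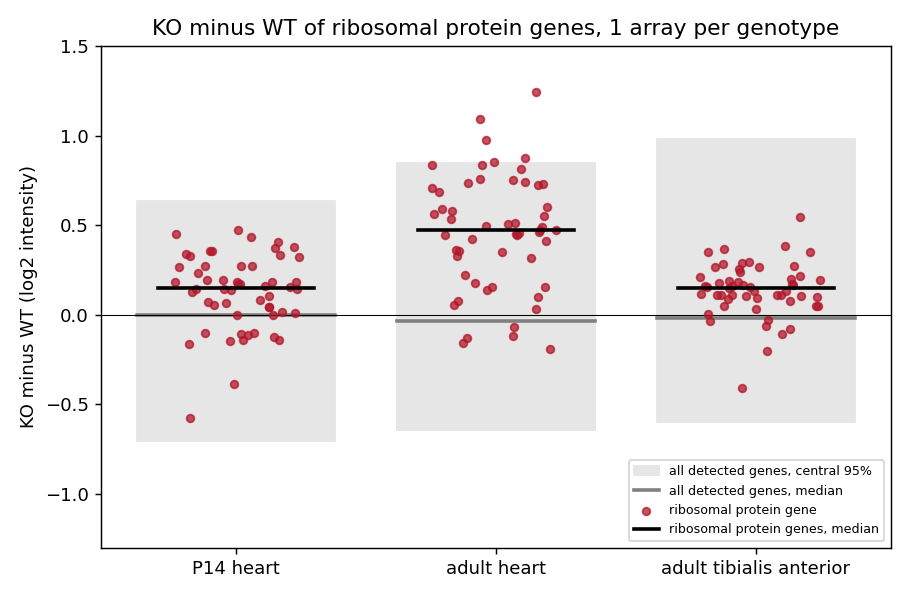
KO minus WT (log2 intensity) of the detected ribosomal protein genes (points) in the 3 settings, with their median (black line) and the median and central 95% of all detected genes (grey line and box). The members' medians were 0.15 at P14, 0.47 for adult hearts and 0.15 for tibialis anterior.

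Across the 3 settings together, 35 of 54 members (64.8%) had KO above WT in every setting, against 14.6% of all tested genes, and 1 member, Rpl23, had KO below WT in every setting, against 18%. This count of Rpl23 rests on its brightest probe, since another of its detected probes had KO above WT in all 3 settings (0.30, 0.36 and 0.37). In the limma fit of genotype with setting as a term, 0 of 54 members were called at an adjusted p under 0.05, and 7 of 10271 genes (0.0682%) were. Unadjusted p-values under 0.05 were found for 16 of 54 members, against 9.73% of all genes, all 16 with KO higher. The lowest adjusted p of a member was 0.476. Rpl30 had the highest difference (0.66, SE 0.19), followed by Rps26 (0.53), Rps13 (0.46) and Rpl36a (0.45), and the lowest were Rpl23 (-0.13), Rps4l (-0.04) and Rpl7l1 (-0.01). The median over the members was 0.23, 0.14 when either adult heart array was left out and 0.30 when either P14 array was.

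Whether the adult heart pair differed from the other settings was tested as an interaction in the same framework, with 1 residual degree of freedom. The median of the members' adult heart difference minus that of the other settings was 0.42, against -0.01 over all genes. With limma 0 of 54 members were called, as were 0 of 10271 genes, and 9 members and 308 genes (3%) had an unadjusted p under 0.05. For P14 against the other settings the median was -0.17, with 0 of 54 called (4 genes, 0.0389%), and for the tibialis anterior against the hearts -0.15, with 0 of 54 called (38 genes, 0.37%). Rpl3 had the lowest p of the members in the last test, with a difference of 0.64 (SE 0.23, adjusted p = 0.413 with limma).

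Markers of other cells moved with these pairs, and their part in the ribosomal protein differences was not tested. In the adult heart, 0 of 6 proliferating-cell markers were detected on the KO array and 3 on the WT array, with a summed level of 121 in KO and 227 in WT. Red-cell markers had a median of -0.79 (4 detected, 2 lower in KO by at least 1.5-fold and 2 above WT). They ranged from -2.53 to 1.93, with summed levels of 28847 in KO and 28576 in WT. The 5 fast-fibre markers detected on both arrays had a median of 2.45 (4 higher). All 4 adipocyte markers were higher in KO, by a median of 0.45, with 2987 in KO and 2125 in WT. The 2 airway markers detected in the adult heart differed by a median of -1.52, with 3312 in KO and 7630 in WT. At P14, the 7 fast-fibre markers detected on both arrays were higher in KO, by a median of 2.81, and 4 more were detected on the KO array only. In the tibialis anterior, all 9 detected liver markers were higher in KO, by a median of 2.70, with 9431 in KO and 1343 in WT, although albumin itself was not detected on any array. Adipocyte markers there had a summed level of 600 in KO and 146 in WT, with 2 of 4 detected on the KO and 1 on the WT array, and endothelial markers 897 in KO and 1161 in WT, with 4 lower in KO. The 7 cardiomyocyte markers had median differences of -0.13 in P14 hearts and 0.02 in adult hearts.

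Lists of other translation genes had adult heart medians between -0.21 and 0.05, and their counts past 1.5-fold stand beside 7.33% of all genes higher and 3.76% lower. These lists share genes, so their values are not independent. As drawn up, the elongation and the other TOP lists share Eef1a1, Eef1b2, Eef1d, Eef1g and Eef2. The initiation and the other TOP lists share Eif3e, Eif3f, Eif3h and Eif4b. Eif4ebp1 and Eif4ebp2 are in the initiation and the mTOR lists. The ribosome biogenesis list shares Npm1 with the other TOP list and Eif6 with the initiation list. The 9 detected elongation factors had a median KO minus WT of -0.12 in the adult heart, with 0 at least 1.5-fold higher, and the 29 initiation factors -0.11, with 3 at least 1.5-fold higher and 1 lower. The 15 detected genes of the other TOP mRNA list had a median of -0.21, with 0 higher and 1 lower past 1.5-fold. In it, Pabpc1, the poly(A)-binding protein, stood at 8.55 in KO and 9.36 in WT, and Btf3, a nascent-chain factor, at 11.57 in KO and 11.09 in WT. The 41 ribosome biogenesis genes had a median of 0.05 (5 higher, 3 lower), and the 16 genes of the mTOR pathway -0.07 (2 higher, 0 lower).

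Eif4ebp1, the translation repressor that mTOR phosphorylates, was at 10.91 in KO and 10.15 in WT adult hearts (0.76). Nhp2, a protein of box H/ACA particles that modify ribosomal RNA, was at 8.86 in KO and 8.22 in WT adult hearts (0.64). In the comparison over the 3 settings none of these lists had a called gene. Ddit4, an inhibitor of mTOR signalling, had the highest difference of the mTOR list there (0.85, SE 0.13, adjusted p = 0.164 with limma) with KO minus WT differences of 0.97 at P14, 0.55 in adult hearts and 1.03 in tibialis anterior.

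Groups outside cytosolic translation had adult heart differences of their own, in lists taken by symbol after the data were seen. Respiratory chain and ATP synthase subunits had a median of 0.37 (22 of 70 at least 1.5-fold higher, 0 lower), mitochondrial ribosomal proteins 0.30 (16 of 72 higher, 2 lower) and proteasome subunits 0.13 (4 of 32 higher, 1 lower), against 7.33% of all genes higher and 3.76% lower. Their medians at P14 were 0.11, 0.22 and 0.10, and those of the leg muscle -0.06, -0.07 and 0.14. The adult heart medians of the first 2 lists lay between that of all genes and the 0.47 of the cytosolic ribosomal proteins.

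Between the adult tibialis anterior and the adult heart, single ribosomal protein genes differed in both directions, while most did not pass the test. In the limma fit 8 of 54 members were called higher in the tibialis anterior (14.8%, background 19.6%) and 6 lower (11.1%, background 23.5%), so that 25.9% of members and 43.1% of genes were called. With arrays centred on their medians 9 members were called higher and 6 lower, and 1471 of 4863 called genes were higher, against 2018 of 4431 with quantile normalization. The median difference was 0.11, against -0.05 over all genes. The 14 calls became 7 with 1.5-fold required, 9 with no detection filter and 8 with eBayes without trend.

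**Figure D3:**
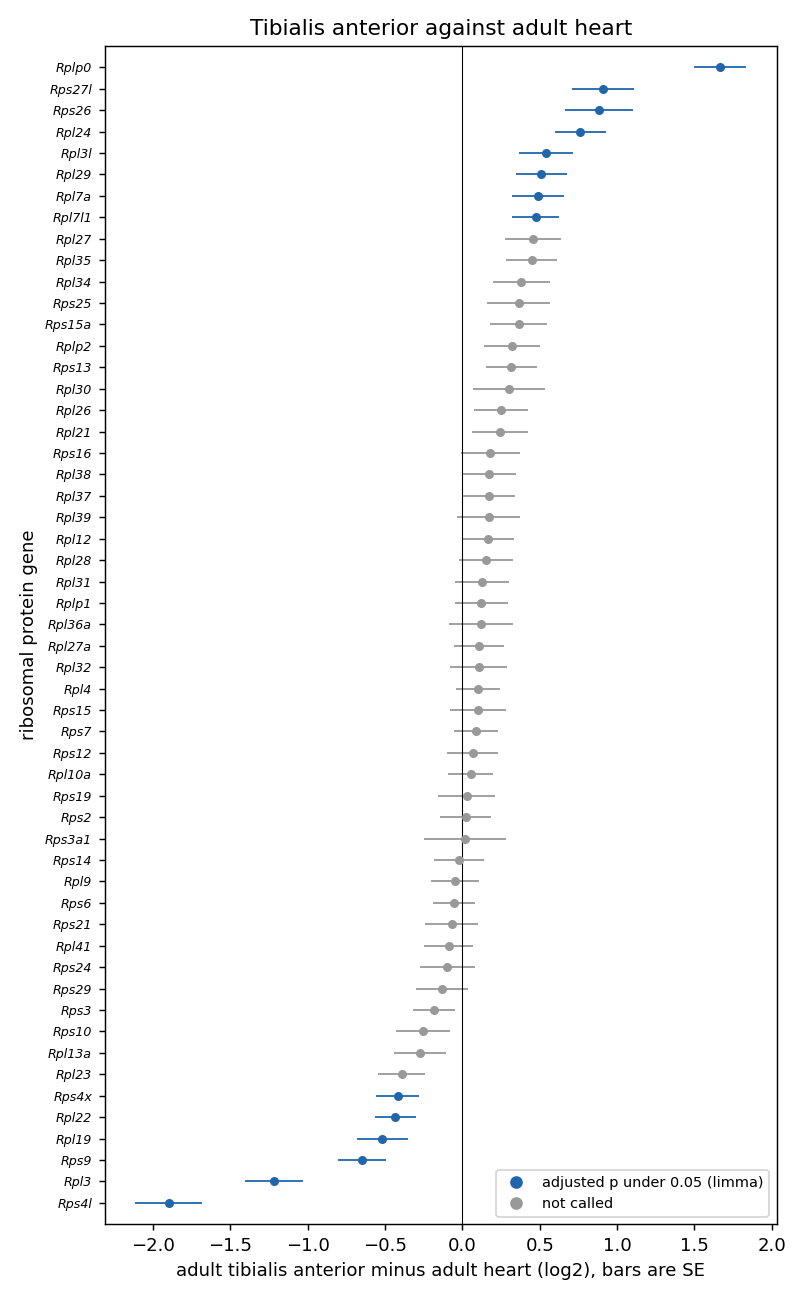
Adult tibialis anterior minus adult heart (log2 difference, bars are SE, limma fit on 6 arrays) of 54 ribosomal protein genes, blue where the adjusted p was under 0.05. Rplp0 at 1.67 and Rps4l at -1.90 mark the ends, and 40 grey genes were not called.

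Rplp0, the protein at the base of the stalk that binds the acidic proteins Rplp1 and Rplp2, read 8.47 in KO and 8.12 in WT tibialis anterior, against 6.67 in KO and 6.59 in WT adult hearts. It rose by 1.67 (SE 0.17, adjusted p = 0.000135 with limma), and the 2 tissues did not overlap. Its partners Rplp1 (0.12, adjusted p = 0.583) and Rplp2 (0.32, adjusted p = 0.189) were not called. Rplp0 is often used as a reference gene for normalization. Its values here rest on its brightest probe, since the other, at 4.16 to 4.36, was not detected on any array. The brightest probe itself read below the members' median, 11.92 to 12.47, on every array. Which transcripts it reports was not tested.

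Rps27l rose by 0.91 (adjusted p = 0.00742), Rps26 by 0.88 (adjusted p = 0.0126) and Rpl24, a late-joining large-subunit protein, by 0.76 (adjusted p = 0.00696, all limma). Rps27l was at 12.51 in KO and 12.41 in WT tibialis anterior, against 11.99 in KO and 11.11 in WT adult hearts. These 3 differences were larger in the WT arrays, at 1.29, 1.35 and 0.94, than in the KO arrays, at 0.52, 0.41 and 0.58. Without the adult WT heart array they were 0.54, 0.46 and 0.53 and none was called, and without the WT tibialis anterior array Rps27l (0.70) and Rps26 (0.60) were not called.

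The other members called higher were Rpl3l (0.54), Rpl29 (0.51, with 0.78 from its second probe), Rpl7a (0.49) and Rpl7l1 (0.47), a nucleolar relative of Rpl7. Without the adult WT heart array the differences of Rpl29 (0.30), Rpl7a (0.31) and Rpl7l1 (0.58) were not called, nor were they without the WT tibialis anterior array (0.31, 0.54 and 0.42). Rpl7a and Rpl7l1 were also not called without either KO array of these tissues (0.37 to 0.67), nor Rpl29 without either P14 array (0.51). Of the members just under the threshold, Rpl35 had a difference of 0.45 (adjusted p = 0.0559 with limma). Rpl36al, outside the rule, rose by 0.81 (adjusted p = 0.00493).

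Rpl3 and Rps4l were the members with the largest falls. Rps4l, the transcribed pseudogene, read 5.56 in KO and 5.97 in WT tibialis anterior, against 7.61 in KO and 7.72 in WT adult hearts. It fell by 1.90 (SE 0.22, adjusted p = 0.000265 with limma). Its tibialis anterior values stood close to the lowest detected values of those arrays, 5.18 in KO and 5.21 in WT. The size of the fall is therefore uncertain. The like-named gene Rps4x, which encodes the small-subunit protein, fell by 0.42 (adjusted p = 0.0415), and that call was lost with any 1 of the 6 arrays left out.

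Rps9, a small-subunit protein near the mRNA entry site, fell by 0.65 (adjusted p = 0.0107 with limma), and its second probe gave -0.22. Rpl19, which forms a bridge between the subunits, fell by 0.52, and Rpl22 by 0.43. Rpl22 was not called with any 1 array left out, Rpl19 without the KO tibialis anterior (-0.34) or the adult KO heart array (-0.30), and Rps9 without the KO tibialis anterior array (-0.49). Rplp0, Rpl3 and Rps4l kept their calls with each of the 6 arrays left out in turn. Detected probes of one gene gave tissue differences of -0.54 to 0.33 for Rpl27a, 0.02 to 0.64 for Rpl21 and -0.61 to -0.10 for Rps24.

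The median over the members depended on the genotype. In KO arrays alone the median tissue difference was -0.03 with 20 of 54 members above 0, and in WT arrays alone 0.29 with 43 of 54 above 0. Leaving out the adult WT heart array gave a median of -0.10 and 6 called members, and leaving out the WT tibialis anterior array gave 0.08 and 6 called members. The count over the members was 9 without the KO tibialis anterior array.

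**Figure D4:**
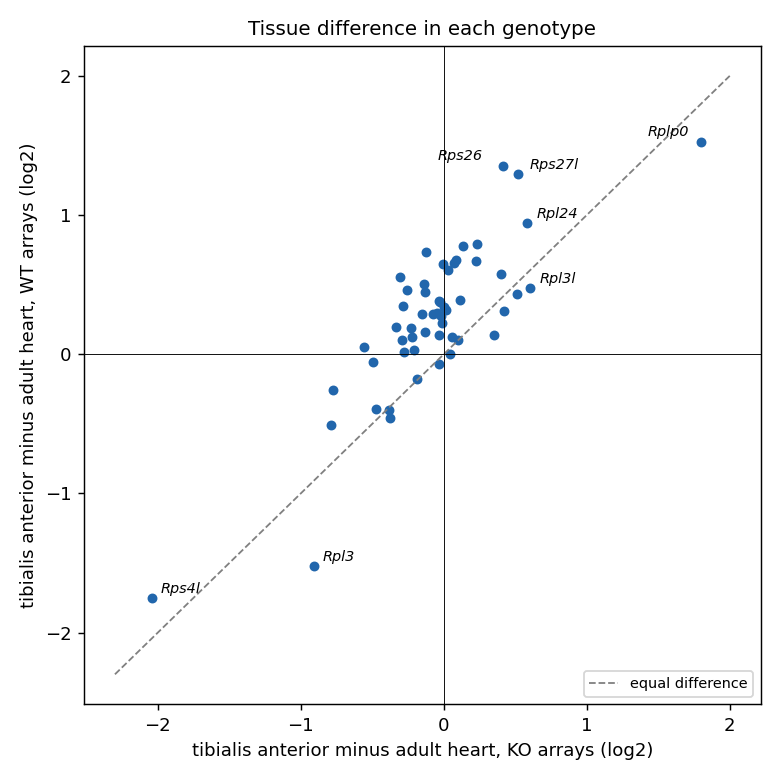
Tibialis anterior minus adult heart (log2) of 54 ribosomal protein genes in KO arrays (x) and in WT arrays (y), with a dashed line at equal difference. Most points lie above the line, where the WT difference is larger, and Rplp0, Rpl3 and Rps4l lie far from 0 on both axes.

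Rpl3 and its muscle paralogue Rpl3l moved in opposite directions between the tissues. Rpl3 was at 11.87 in KO and 11.32 in WT tibialis anterior, against 12.78 in KO and 12.84 in WT adult hearts. It fell by 1.22 (SE 0.19, adjusted p = 0.00134 with limma), by 0.91 in KO and by 1.52 in WT arrays. Rpl3l was at 14.35 in KO and 14.41 in WT tibialis anterior, against 13.74 in KO and 13.93 in WT adult hearts. It rose by 0.54 (SE 0.17, adjusted p = 0.0352), with 0.61 in KO and 0.47 in WT arrays, and lost its call in 5 of 6 fits that left out 1 array (0.38 to 0.70).

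With age, Rpl3l was the one member called higher in the heart. It read 13.74 in KO and 13.93 in WT adult hearts, against 13.03 in KO and 12.70 in WT P14 hearts, and the ages did not overlap. It rose by 0.97 (SE 0.17, adjusted p = 0.00876 with limma), and without the P14 WT array the difference was 0.75 (adjusted p = 0.193) and without the adult WT heart array 0.81 (adjusted p = 0.0534). Rpl3 was at 12.78 in KO and 12.84 in WT adult hearts, against 13.11 in KO and 13.23 in WT P14 hearts, a difference of -0.36 that was not called (adjusted p = 0.244).

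Because different probes cannot be compared in level, the difference Rpl3l minus Rpl3 is given relative to its value on the P14 WT array. It was 0.45 on the P14 KO array, 1.5 in KO and 1.62 in WT adult hearts, and 3.01 in KO and 3.62 in WT tibialis anterior. The P14, adult heart and tibialis anterior values therefore did not overlap, in this order. The KO value was above the WT value at P14 and below it in both adult settings.

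**Figure D5:**
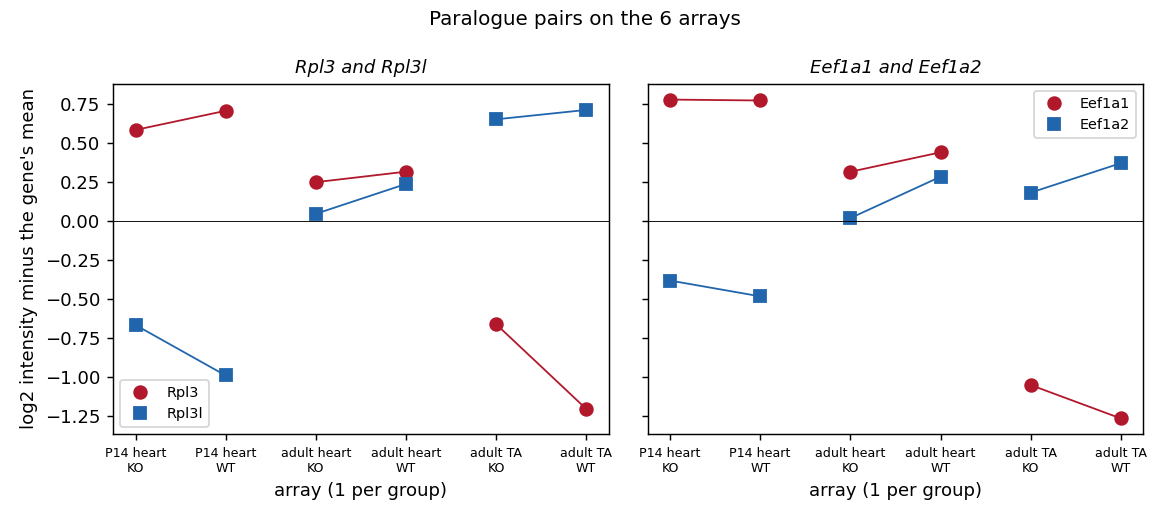
Log2 intensity minus the gene's mean over the 6 arrays for Rpl3 and Rpl3l (left) and for the elongation factors Eef1a1 and Eef1a2 (right), with KO and WT arrays of a setting joined and TA for tibialis anterior. Rpl3 and Eef1a1 are lowest in the tibialis anterior, and Rpl3l and Eef1a2 are lowest in the P14 heart.

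The elongation factor eEF1A has a like pair, the general Eef1a1 and the muscle and nerve form Eef1a2. Eef1a1 was at 12.77 in KO and 12.56 in WT tibialis anterior, against 14.14 in KO and 14.26 in WT adult hearts. It fell by 1.54 (adjusted p = 0.000145 with limma), while Eef1a2 differed by 0.13 (adjusted p = 0.554). With age in the heart Eef1a2 rose by 0.58 (adjusted p = 0.0447), and Eef1a1 differed by -0.40 (adjusted p = 0.139).

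Between adult and P14 hearts few other ribosomal protein genes were called. Called higher was 1 of 54 (1.85%, background 7.6%) and called lower were 2 (3.7%, background 6.73%). With arrays centred on their medians 17 members were called, 1 of them higher, and 564 of 2385 called genes were higher, against 781 of 1472 with quantile normalization. Rps4l, at 7.61 in KO and 7.72 in WT adult hearts against 8.85 in KO and 8.44 in WT P14 hearts, fell by 0.98 (adjusted p = 0.0218 with limma). Rplp0, at 6.67 in KO and 6.59 in WT adult hearts against 7.40 in KO and 7.26 in WT P14 hearts, fell by 0.70 (adjusted p = 0.0299). Rps27l had a difference of -0.71 at an adjusted p of 0.0504, and Rpl22, the next highest after Rpl3l, one of 0.31 (adjusted p = 0.163).

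None of the 3 calls of age held with every array left out in turn. Rplp0 was not called without either P14 array (-0.73 without KO, -0.66 without WT) or either adult heart array (-0.61 without KO, -0.78 without WT). Rps4l was not called without the P14 KO array (-0.65), the adult KO heart array (-0.92) or the adult WT heart array (-1.04). The median over the 54 members was -0.19 against -0.01 over all genes. It was 0.01 in KO arrays alone and -0.39 in WT arrays alone, and 0.01 with 0 members called in the fit without the adult WT heart array. Without either P14 array 1 member was called.

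The fixed lists of the translation machinery, which share genes, also held tissue differences. Between tibialis anterior and adult heart, 4 of 9 elongation genes were called higher and 1 lower, led by Eef2k, the kinase that inhibits eEF2, at 1.56, and Eef1e1 at 1.10. Of 29 initiation genes 7 were called higher and 2 lower, with Eif2s2 (1.16) and Eif2b1 (1.14) highest and Eif4a1 (-0.86) and Eif4ebp1 (-0.65) lowest. Of 15 other TOP mRNAs 2 were called higher (Btf3 0.68, Eef1g 0.56) and 7 lower, including Vim at -1.41.

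Of 42 ribosome biogenesis genes 11 were called higher and 5 lower, with Nhp2 (1.06) and Ltv1 (0.95) highest. Polr1e, a subunit of RNA polymerase I, fell by 1.99 and Taf1a, a factor of the same polymerase, by 1.28. Of 17 mTOR pathway genes 6 were called higher, led by Ddit4l (5.47) and Deptor (1.35), and 2 lower, Sesn1 (-2.13) and Eif4ebp1 (-0.65). These shares stand beside 19.6% of all genes called higher and 23.5% lower.

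With age in the heart, 1 of 9 elongation genes, 0 of 29 initiation genes and 0 of 15 other TOP mRNAs were called. Of 42 ribosome biogenesis genes 1 was called higher, Taf1a (0.94), and 3 lower, among them Ubtf (-1.02), an activator of ribosomal RNA transcription, and Polr1e (-0.74). Of 17 mTOR pathway genes 4 were called higher and 0 lower, with Sesn1 at 1.20 and Deptor at 0.78. These counts stand beside 7.6% of all genes called higher and 6.73% lower. Of 6 proliferating-cell markers, 0 were detected in KO and 3 in WT adult hearts, against 4 in KO and 5 in WT P14 hearts, and their part in these values was not tested.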

How the data were processed

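Expression was measured on 6 bead arrays, 1 per group. The deposited scanner table gives, per the file headers, a mean bead intensity, its standard error (a signal in intensity units), a bead count and a detection p-value by probe and array. The authors also deposited processed intensity values, which lay within 0.343% of quantile-normalized intensities without background subtraction, by comparison with the scanner file. Their software is not named here. Median bead counts were 43 and 44 per probe, detected probes 14892 to 17979 per array, and the number of arrays limits the precision.

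From the scanner intensities, background was corrected with normexp (limma 3.58.1 in R 4.3.3, offset 16), followed by quantile normalization and log2. The platform annotation names 1 gene for 34885 probes, several for 18 and none for 10378. A gene is its brightest probe. A limma model of genotype and setting (lmFit and trended eBayes, residual degrees of freedom 2) ran over the 10271 genes that 2 or more arrays detected, and genes were called at a Benjamini-Hochberg adjusted p under 0.05. KO and WT arrays of a tissue served as its samples. Pairs have no test and are counted past 1.5-fold. The fit was run on simulated arrays with independent noise per gene, which carry no shift of a whole gene family on an array.

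The members and gene lists were chosen with earlier results of these data known. Named were the paralogues, the 4 highest and 4 lowest members of each pair, called members, members whose probes disagree most, and the 2 highest and 2 lowest of a list, some of which are left out. Protein sequences were not used here. Rpl34, Rps19, Rps16, Rps27l and Rpl3 in the adult heart pair, Rpl36a over the settings, Rps4x at P14 and Rpl35 were named after their values were seen. The interaction tests, fits without single arrays, single-genotype differences, marker medians over genes detected on both arrays, start-window counts and symbol-pattern lists were chosen after seeing the data.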

Additional observations from a re-analysis of the deposited data

Results flagged for a closer look

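Rps3a1 and Rpl39 differed between KO and WT in opposite directions at P14 and in the adult heart. In these settings each differed by at least 0.32 in log2 and more than 2 bead standard errors. Rps3a1 had a KO minus WT difference of -0.57 at P14, 0.55 for adult hearts and 0.26 for tibialis anterior. Rpl39 had -0.39 at P14, 0.45 for adult hearts and 0.11 for tibialis anterior. Each difference rests on 1 array per genotype. They were the 2 of 54 members at least 0.32 lower in KO at P14 (3.7%, background 15.8%). In the adult heart 39 of 54 members were at least 0.32 higher in KO (background 18.6%). The share of all genes that changed direction in this way was not counted, so none is claimed for these 2 genes. The interaction tests with limma called neither gene: for P14 against the other settings the difference was -0.98 for Rps3a1 (SE 0.34) and -0.67 for Rpl39 (SE 0.34), both at an adjusted p of 1.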

How the results depend on the processing

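The setting pairs KO and WT arrays in the fit. No paired analysis was possible because each group has 1 array, other than this pairing by setting. The median KO minus WT over the settings stayed above 0 and 0 members were called in every alternative run, with medians of 0.14 to 0.30 when 1 array was left out. With arrays centred on their medians, the median of all genes was -0.25 between tissues (main -0.05) and -0.22 between ages (main -0.01), which are shifts of -0.19 and -0.21. It gave member medians of 0.28 for the P14 pair, 0.61 for the adult heart pair and -0.40 between ages, with 17 members called between ages (main 3) and 1 and 30 members past 1.5-fold in the P14 and adult heart pairs. With 1 array left out, the medians were -0.38 to 0.012 between ages and -0.10 to 0.33 between tissues, and calls were 0 to 4 between ages and 6 to 12 between tissues (main 14). Calls between ages were 5 without the tibialis anterior pair. Calls between tissues were 7 with 1.5-fold required, 9 with no detection filter and 8 with eBayes without trend. Members past the fold were 14, 39 and 6 at a log2 bound of 0.32 in the P14, adult heart and tibialis anterior pairs, 2 at 2-fold in adult hearts, and 1 for tibialis anterior with no detection filter. Over the settings, Rpl3 (0.12) turned to -0.10 without the tibialis anterior pair and spanned -0.10 to 0.24 with single arrays left out, and Rpl3l (0.02) turned to -0.13 without the P14 pair and spanned -0.13 to 0.13. With 1 array left out, a setting holding a lone array is assumed to vary like the others. The causes were not tested.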
